A study of Mus musculus with 3 samples.

Results

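The circadian clock genes Per1, Per2, Per3, Cry1, Clock, Dbp and Csnk1e were measured in mouse neural retina at midday. All probe sets whose platform annotation gave exactly 1 of these 7 symbols were taken, which was 9 of the 12488 probe sets on the array and 9 of the 10855 with a single symbol. Cry1 had 3 probe sets and every other gene had 1. The 7 genes were chosen by name and not by their signal, although results for some of them were known when they were chosen. The samples were 3 pools of neural retina from wild-type mice at postnatal day 10, each of 3 to 4 animals of a mixed 129/SvEv and C57BL/6 background, all dissected between 1 and 2 pm. The animals were littermates of Rp1-/- mice, which were not analysed here. The descriptions call all 3 pools wild type, but the titles of pools 2 and 3 contain the letters rp1 and that of pool 1 does not, and no probe set in the tables used here was named Rp1, so the genotype was not checked on the arrays. Each RNA sample was hybridised to an Affymetrix U74Av2 array, on which a probe set (a group of short probes for 1 transcript) gives 1 signal. There was 1 group, 1 age and 1 collection window, so the data show which clock transcripts were measurable and how closely the pools matched, and no test between conditions or times of day was possible. In whole retina, fewer cells of a type and less RNA per cell cannot be told apart.

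The clock is a feedback loop of transcription that runs with a period of about a day in most mammalian cells. The proteins CLOCK and BMAL1 (gene Arntl) pair on E-box sequences and switch on the Per and Cry genes, whose proteins gather, enter the nucleus and inhibit CLOCK and BMAL1. Casein kinase 1 epsilon, encoded by Csnk1e, and its close relative Csnk1d phosphorylate PER proteins and mark them for degradation, and DBP is an output factor that activates genes through D-box sequences. The mammalian retina has a clock of its own, known for setting the daily rhythm of melatonin and dopamine, and transcripts of most of these genes rise and fall over the day. The single collection window fixes the clock time but shows nothing of that rhythm.

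E-boxes and D-boxes are the sequences through which the loop above is known to act, so the promoter letters of the 7 genes are shown for reference; no binding was measured. RefSeq promoter windows (GRCm38.p6), from 250 bases before to 50 after an annotated transcription start, were available for 6 of the 7 genes. The windows were searched on both strands for the E-box CACGTG, the related E′-box CACGTT, the D-box in the spellings TTATGTAA and TTATGCAA, and the cAMP response element TGACGTCA, and no match overlapped another. The stretches below are those of the repressor genes that held a match, with the matches in capitals and the gene's own strand written 5′ to 3′. The Cry1 stretch lies at chr10:85185089-85185153 (minus strand), the Per1 stretches at chr11:69098763-69098808 and chr11:69098905-69098952 (plus strand) and the Per3 stretch at chr4:151044796-151044890 (minus strand).
Cry1 E′-box (read on the other strand) and E-box: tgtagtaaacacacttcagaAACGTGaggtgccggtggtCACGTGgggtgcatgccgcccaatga
Per1 E-box: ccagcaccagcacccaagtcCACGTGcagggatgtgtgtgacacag
Per1 D-box: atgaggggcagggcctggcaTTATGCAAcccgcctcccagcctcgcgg
Per3 D-boxes: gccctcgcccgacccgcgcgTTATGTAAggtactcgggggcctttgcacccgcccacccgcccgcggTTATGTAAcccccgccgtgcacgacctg

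The E-box of Cry1 begins 60 bases upstream of the start site and its E′-box 79 bases upstream. The E-box of Per1 begins 166 bases upstream and its D-box 24 bases upstream, and the Per3 D-boxes begin 205 and 158 bases upstream. An E-box was present in 7.15% of all 32851 windows and an E′-box in 4.68%. The D-box spelling TTATGTAA was present in 0.938% and TTATGCAA in 0.743%. The windows of Clock, Dbp and Csnk1e held none of these letters, which says nothing about sequence farther away.

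To tell signal from background, each array was given a limit at the 90th percentile of 110 probe sets for 88 genes typical of tissues other than retina, such as liver, pancreas, muscle and testis. These limits were signals of 432.9, 420.3 and 386.8 in pools 1, 2 and 3. Of the 9 clock probe sets, 2 exceeded it on all 3 arrays, against 29.9% of all 12422 non-control probe sets. Those 2 were a Cry1 set and the Csnk1e set. The Per3 set exceeded it on 2 arrays and the Per1 set on 1. The other 5 probe sets, for Per2, Clock, Dbp and 2 of the 3 Cry1 sets, exceeded it on no array, as did 57.4% of all probe sets. With the limit at the 75th percentile, 5 of the 9 sets exceeded it on all arrays, with Per1, Per3 and Clock added, and with the 95th percentile only the Cry1 set did. A signal below the limit does not show that the gene was silent, and signal is not compared between probe sets, because each binds its target with its own efficiency.

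**Figure D1:**
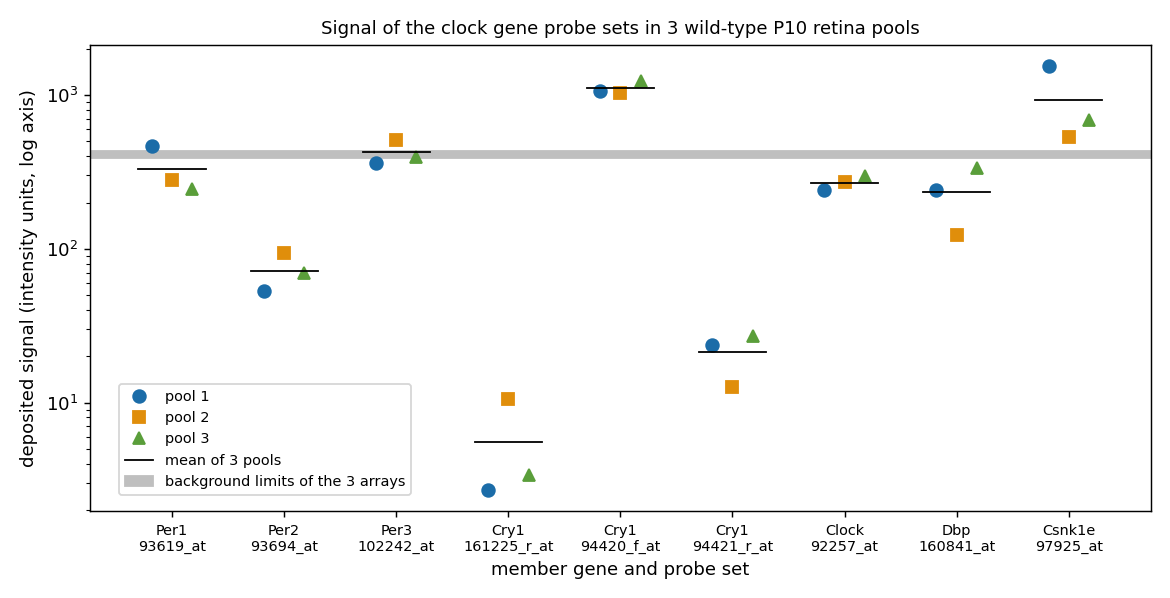
Signal of the 9 clock gene probe sets (log axis, deposited intensity units) in pools 1, 2 and 3, with the mean of the 3 pools as a bar and the range of the 3 background limits (386.8 to 432.9) in grey. The Cry1 set 94420_f_at and the Csnk1e set lie above the grey band in every pool, and the other Cry1 sets lie far below it.

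Among the repressors, Per1, a period gene that light induces rapidly in the brain's master clock, gave signals of 467.0, 278.9 and 244.7 in pools 1, 2 and 3. It was above background in pool 1 only, at 1.08 times the limit. Its excess in pool 1 was at least 1.11-fold over pool 2 and at least 1.21-fold over pool 3. Per1 varied by an SD of 0.49 on the log2 scale (n = 3), and without pool 1 the SD was 0.13, over signals not above background. Whether Per1 differed between pools 2 and 3 was thus not resolved.

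Per2, whose protein is needed for a persistent rhythm in mice, read 53.5, 93.8 and 69.2 in pools 1, 2 and 3. These signals were 0.124, 0.223 and 0.179 times the limits, so the level of Per2 was not resolved from background in any pool and no fold is given. Per3, the period gene that mice can lose with little effect on their rhythm, read 364.2, 511.0 and 395.2 in the same pools. It was above background in pools 2 and 3, at 1.22 and 1.02 times the limit, and below it in pool 1, at 0.841 times. The excess of pool 2 over pool 1 was at least 1.18-fold. The mean of Per3 was 423.5 ± 77.4 (SD, n = 3) with an SD of 0.25 on the log2 scale. The median SD was 0.3 for the 1107 probe sets whose mean log2 signal was within 0.25 of that of Per3. For all probe sets above background on every array, which Per3 was not, the median was 0.24. Without pool 2 the SD of Per3 was 0.08, over 1 signal below the limit and 1 above it. With the 95th percentile as the limit, neither Per1 nor Per3 was above background on any array, and these bounds no longer hold.

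Cry1 encodes a cryptochrome that is a strong inhibitor of CLOCK and BMAL1. Its set 94420_f_at read 1056.3, 1034.6 and 1238.1 in pools 1, 2 and 3, a mean of 1109.7 ± 111.8 (SD, n = 3), and stood at 2.44, 2.46 and 3.2 times the limits. Its SD of 0.14 on the log2 scale was larger than that of 22.9% of the probe sets above background on all arrays, and was 0.02 without pool 3. The other sets, 94421_r_at at 23.8, 12.7 and 27.2 and 161225_r_at at 2.7, 10.5 and 3.4, were near the bottom of the scale in every pool, so their order of pools is not read. The suffix _f_at marks a set whose probes can also match related transcripts and _r_at one for which the usual rules of probe choice were relaxed. The reading of Cry1 as measurable thus rested on 1 of 3 sets, and the part of cross-hybridisation in its signal was not tested. Cry2, the related cryptochrome gene, read 552.2, 610.6 and 579.7 on a set with no suffix, highest in pool 2, whereas the Cry1 set was highest in pool 3.

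Of the activators, Clock encodes the DNA-binding partner of BMAL1. Its set read 240.5, 271.9 and 296.2 in pools 1, 2 and 3, below the limit in each pool at 0.556, 0.647 and 0.766 times its value. Its SD of 0.15 on the log2 scale, against a median of 0.39 for the 1092 probe sets whose mean log2 signal was within 0.25 of it, describes signals not resolved from background. Arntl, which encodes BMAL1, was above background in every pool at 1505.1, 1572.3 and 1568.4. Its SD of 0.04 on the log2 scale (n = 3) was smaller than that of all but 1.51% of the probe sets above background. Npas2, which can stand in for Clock in mouse brain, was not above background on any array.

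Dbp, the D-box activator and a direct target of CLOCK and BMAL1, read 242.9, 123.0 and 334.9 in pools 1, 2 and 3. It was not above background in any pool, with 0.561, 0.293 and 0.866 times the limit. Its SD of 0.74 on the log2 scale, and of 0.33 without pool 2, thus describes signals not resolved from background. With the limit at the 75th percentile, Dbp exceeded it on 2 arrays. Tef, a factor of the same PAR bZIP family, was above background throughout at 1731.4, 1280.4 and 1152.6, with a 1.5-fold range. Nfil3, which represses through the same D-box, was above background on no array. Of these 3 genes Tef was thus the only one resolved from background in every pool, and it was highest in pool 1.

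Csnk1e, the PER kinase gene, was the only one of the 7 genes with both a signal above background in every pool and a range over 2-fold. Its set read 1549.5, 535.6 and 686.0 in pools 1, 2 and 3, a mean of 923.7 ± 547.2 (SD, n = 3) and a 2.89-fold range. These signals were 3.58, 1.27 and 1.77 times the limits, so pool 1 stood farthest above background. Its SD of 0.8 on the log2 scale exceeded that of 99.0% of the probe sets above background on all arrays. Without pool 1 the range was 1.28-fold and the SD 0.25. Pools 2 and 3 thus lay closer to each other than to pool 1, which lay above both.

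Csnk1d, which encodes the partner kinase, was represented by 97263_s_at at 3065.7, 2043.0 and 2365.1 in pools 1, 2 and 3. That is the same order of pools as Csnk1e, with a 1.5-fold range. A second bright Csnk1d set, 97262_at, read 2258.1, 2130.2 and 1686.0 and put pool 3 lowest. Csnk1a1, a casein kinase 1 gene of another branch, stayed within a 1.06-fold range at 2655.3, 2497.2 and 2504.3. By their brightest sets the 3 casein kinase 1 genes were all highest in pool 1, although a second Csnk1a1 set, at 1810.1, 2017.4 and 1817.6, put pool 2 highest.

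The probe sets most like Csnk1e were sought by the Euclidean distance between log2 signals over the 3 pools, each centred on its own mean, among 3348 other named probe sets above background on every array. The nearest was Smarcc1, which encodes a chromatin remodelling subunit, at a distance of 0.118 with 1347.3, 454.9 and 534.3 in pools 1, 2 and 3. Next came Rxrb, a retinoid X receptor gene, at 0.166 and Mapt, which encodes the microtubule protein tau, at 0.175. Clns1a followed at 0.181 and Abcd3, a peroxisomal transporter gene, at 0.196. Within a distance of 0.25, Csnk1e had 6 such probe sets (0.179%), whereas the bright Cry1 set had 857 (25.6%) and Clock 751 (22.4%). With only 3 pools, a small distance mostly reflects how flat or how rare a pattern is.

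Signal differed between pools by more than 1 log2 unit, which is 2-fold, in 4 of the 9 clock probe sets, against 41.5% of all non-control probe sets. Of these 4, the Dbp set and both _r_at sets of Cry1 lay below background in every pool. Of the 2 clock probe sets above background on all arrays, 1 did so, against 6.62% of the 3718 such probe sets. The median SD over the 9 sets was 0.49 on the log2 scale, beside 0.44 over all non-control probe sets, 0.66 over those above background on no array and 0.24 over those above it on all. Of the 2 sets above background in every pool, Csnk1e was highest in pool 1 and Cry1 in pool 3.

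**Figure D2:**
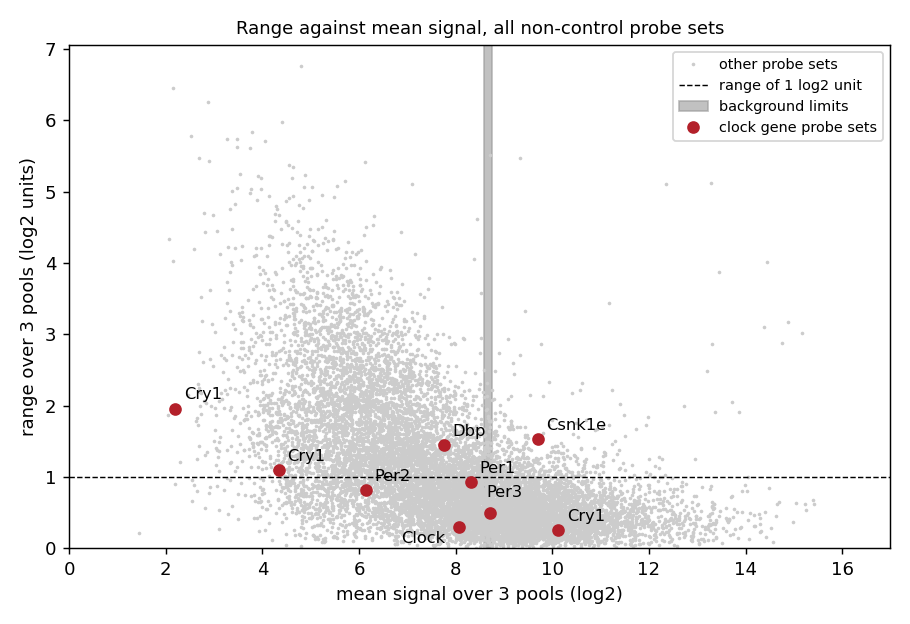
Range of log2 signal over the 3 pools against the mean log2 signal, for all 12422 non-control probe sets (grey) and the 9 clock gene probe sets (red, with gene names). The dashed line is a range of 1 log2 unit and the grey band the background limits. Csnk1e is the only red point right of the band and above the line, with a range of 1.53 log2 units.

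Other genes of the clock were taken from lists by role. With the 7 genes included, 44 genes of these lists were measured, and 24 (54.5%) were above background on all arrays by their brightest set, against 36.6% of all 8251 named genes. The 7 genes alone gave 2 of 7 (28.6%), and the 37 others gave 22 (59.5%). The kinases, phosphatases and turnover genes, which many cell types express, made up 13 of the 24.

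All 3 measured nuclear receptors, which regulate Arntl transcription, were above background on every array by their brightest sets. Nr1d1, encoding the repressor REV-ERB alpha, read 581.7, 463.3 and 552.2 in pools 1, 2 and 3. Nr1d2, encoding REV-ERB beta, read 798.5, 791.7 and 832.4, and Rora, an activating receptor gene, read 534.6, 644.8 and 757.3 on its brighter set. The other Rora set, at 23.1, 64.2 and 16.2, was above background on no array. Nr1d2 had an SD of 0.04 on the log2 scale, the same as Arntl. Of the 7 measured repressors only Cry1 and Cry2 were above background in every pool, and Timeless and Bhlhe40 were above it in none.

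Of the 9 measured kinases and phosphatases, 8 were above background on all arrays. Besides the casein kinase 1 genes these were Csnk2a1 (1022.2, 764.5 and 709.8 in pools 1, 2 and 3), Csnk2a2 (571.6, 880.7 and 626.6) and Gsk3a (6864.9, 5439.8 and 6579.1), kinase genes whose products or close relatives phosphorylate clock proteins. The protein phosphatase 1 genes were Ppp1cb at 1505.3, 2052.2 and 1362.7 and Ppp1cc at 2624.7, 3050.2 and 2719.2. By their brightest sets, 5 of the 9 were highest in pool 1, 4 in pool 2 and none in pool 3. Some of these ranges were small, such as 1.06-fold for Csnk1a1 and 1.16-fold for Ppp1cc. The share over all probe sets was not computed, so the count is not read as a trait of these genes. Another Csnk2a1 set, 103441_at, read 261.4, 421.2 and 462.1, highest in pool 3 and above background in pools 2 and 3. The remaining sets of Csnk2a1 (104545_at and 104546_g_at) and of Csnk2a2 (94483_at and 98245_at) were above background on no array. Ppp2ca, also among the 9, was above background in pool 2 only. Csnk1e was the only one of the 9 with a range over 2-fold by its brightest set.

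Protein turnover genes were above background on all arrays in 5 of 6 cases. Btrc, encoding the ubiquitin ligase adaptor that recognises phosphorylated PER, read 751.5, 867.9 and 810.0 in pools 1, 2 and 3, and its close relative Fbxw11 read 1124.3, 785.1 and 613.7. Cul1, a scaffold of the same ligase, read 1459.1, 1663.3 and 1812.7, and Ddb1, of another ligase family, read 7378.3, 6226.1 and 8364.4. Skp1, the linker of the Cul1 ligase, ran the other way from Csnk1e, with 716.4, 3566.9 and 1497.2 and a 4.98-fold range that put pool 1 lowest. Usp2, a deubiquitinase gene, was above background in 2 pools.

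Of 13 measured genes for retinal outputs and for entrainment, the setting of the clock by light, 4 were above background throughout. Aanat, the gene of the penultimate enzyme of melatonin synthesis, read 486.8, 443.2 and 433.9 on 1 set, only 1.12, 1.05 and 1.12 times the limits. The other Aanat set was below background in every pool. Drd4, a dopamine receptor gene of photoreceptors with a daily rhythm in rodent retina, read 536.9, 648.0 and 2699.7, a 5.03-fold range that put pool 3 highest. The photoreceptor genes Gnat1 and Rcvrn, with ranges of 10.8-fold and 3.59-fold, and the lens markers described below were also highest in pool 3. Of the 9 photoreceptor markers listed, 6 were highest in pool 3, whereas Crx, Prph2 and Nrl were lowest there. The part of photoreceptors or lens in the Drd4 value was not tested. Egr1, an immediate early gene, read 524.6, 475.1 and 699.1, and Atf4, encoding a factor related to CREB, read 5696.7, 5819.8 and 7657.0. Fos, an immediate early gene that light induces, was not above background in any pool.

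**Figure D3:**
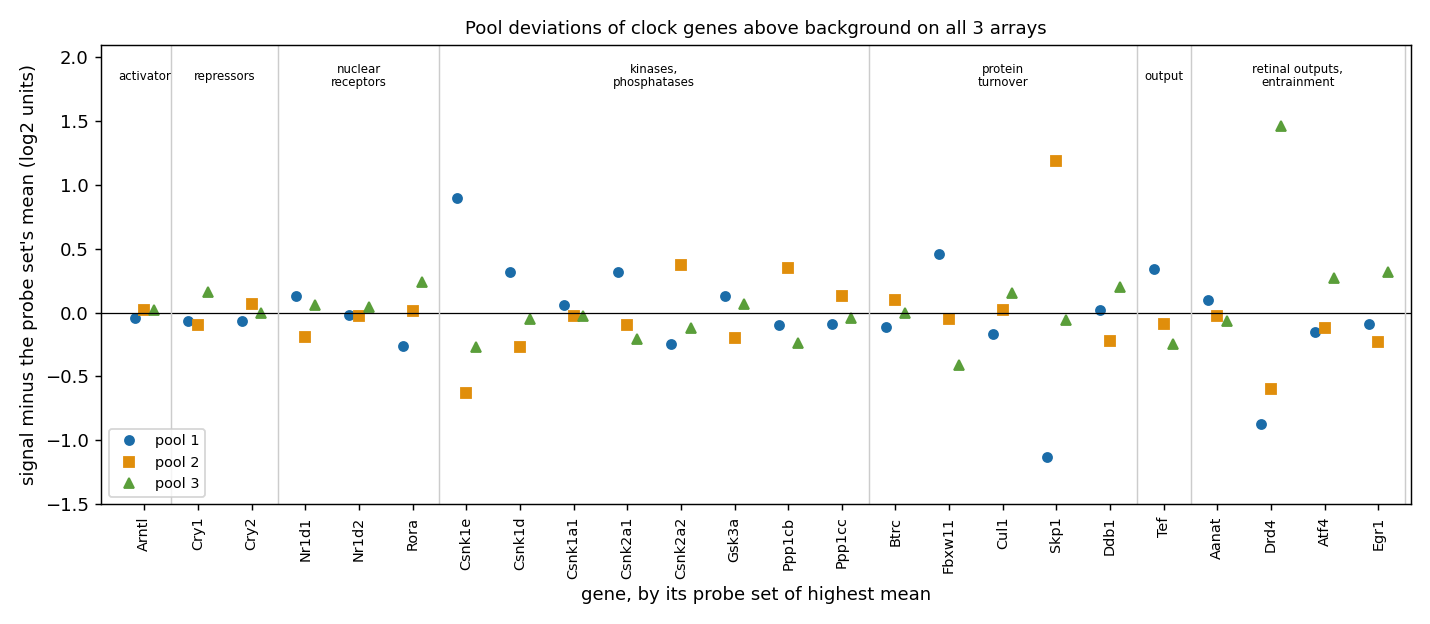
Signal of each pool minus the probe set's mean (log2 units) for the 24 clock list genes above background on all 3 arrays, grouped by role. Csnk1e departs upward in pool 1 (0.90), Skp1 upward in pool 2 and Drd4 upward in pool 3, and the other genes lie closer to 0.

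The pools were dissected tissue, and the signals of cell type markers, which differed between pools, are given beside the values above. All 9 photoreceptor markers were above background on every array. Among them were the rod genes Sag at 22065.8, 24853.5 and 34553.8 and Pde6b at 9198.1, 9943.9 and 11793.3 in pools 1, 2 and 3. Also above background on every array were 7 of 8 markers listed for neurons and glia. Snap25 read 8064.3, 6430.1 and 9260.1 and Gad1 1628.8, 2116.5 and 2270.1. Retinal markers were thus present in every pool. The photoreceptor markers did not move as one: 6 of 9 were highest in pool 3, with Gnat1 at 1014.7, 1101.3 and 10970.1 and Rcvrn at 3145.5, 2429.2 and 8725.7. Crx, at 8222.9, 7619.8 and 6475.1, was lowest in pool 3, as were Prph2 and Nrl. All 9 lens markers were highest in pool 3, with summed signals of 146956, 23904 and 322694. The crystallin genes Cryaa and Crygs ranged 16.2-fold and 34.8-fold. The 4 blood markers summed to 21831, 4542 and 14885. Hba-a1 read 19101.1, 3410.3 and 12645.9 and Hbb-b2 2327.7, 883.1 and 1835.3, the pool order of Csnk1e, and Alas2 and Epb42 were not above background. Of 6 pigment epithelium markers, Rlbp1, which Müller glia also express, was the only one above background on all arrays. Pmel, at 508.0, 348.2 and 777.1, was above background in pools 1 and 3 and lowest in pool 2. Rgr, Ttr, Tyr and Tyrp1 were above background on no array. For Actb, the control probe sets at the 3′ and 5′ ends gave a ratio of 1.2, 1.44 and 1.69, lowest in the pool in which Csnk1e was highest, and that of Gapdh was 0.95, 0.88 and 0.93. The part of lens, blood, pigment epithelium or RNA quality in the Csnk1e values was not tested.

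**Figure D4:**
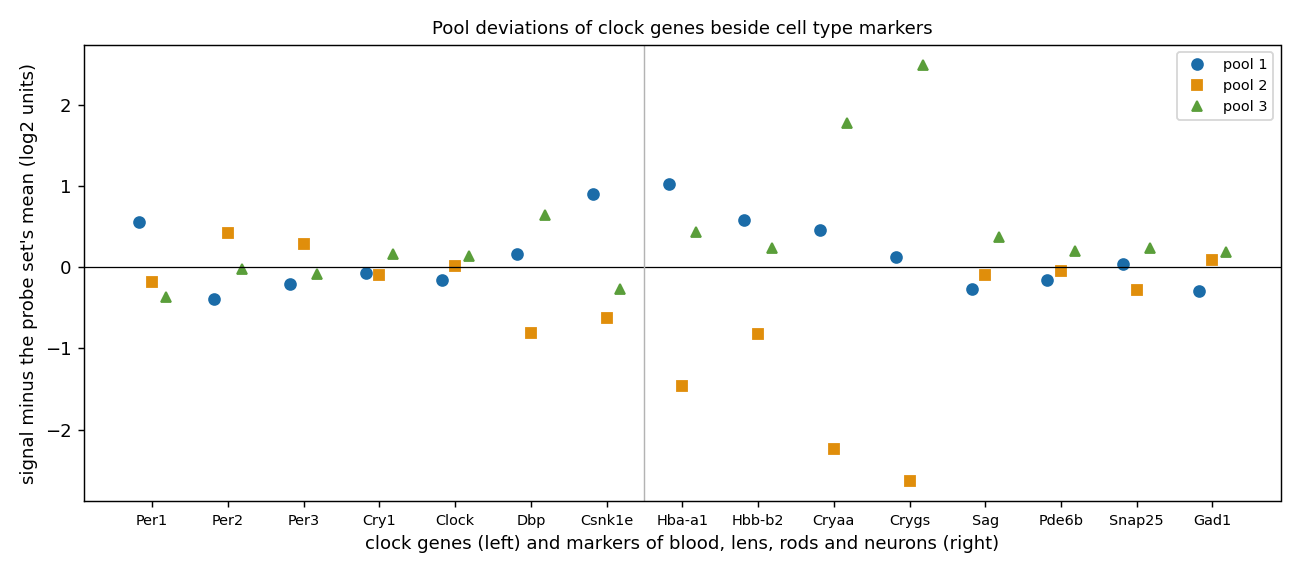
Signal of each pool minus the probe set's mean (log2 units) for the brightest set of the 7 clock genes (left of the line) and for markers of blood (Hba-a1, Hbb-b2), lens (Cryaa, Crygs), rods (Sag, Pde6b) and neurons (Snap25, Gad1). The lens and blood markers and Snap25 are lowest in pool 2, as is Csnk1e. Gad1, Sag and Pde6b are lowest in pool 1, where Csnk1e is highest. The bright Cry1 set lies almost level in pools 1 and 2, at -0.07 and -0.1. Per2, Clock and Dbp were not above background in any pool, so their order is not read.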

How the data were processed

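Probe set signals of 3 Affymetrix U74Av2 arrays were used. The deposited values are linear intensity, and the method by which the authors condensed and scaled them is not stated in the labels. After trimming 2% at each end the array means were 500.3, 500.2 and 500.3, so the deposited intensity was used without further scaling. Symbols came from GEO's platform annotation. For 10839 of the 10855 single symbols the gene was found in a RefSeq table (GRCm38.p6), and its symbol there was used, whether or not it differed. Several symbols were given for 396 probe sets and none for 1237, and 66 controls were left out. No detection call or array batch was used here. Signals below 1 were set to 1 before log2, and a gene with several sets was represented by the one of highest mean. Named were all member probe sets, every clock list gene above background on all arrays, the 5 nearest patterns of a member above background with a range over 1 log2 unit, and the first 2 markers of each cell type list; other names were chosen after their values were seen. The members and lists were chosen with earlier results of these data known. Pools were numbered in accession order. The labels do not say whether pools shared animals, so SDs cover the spread between these 3 arrays, whose number limits the precision. Calculations used Python 3.11.15, pandas 2.3.3 and NumPy 2.4.6, with range and distance calculations tested on simulated data. Alternatives were other background percentiles, scalings, floors, probe sets and left-out pools.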

Additional observations from a re-analysis of the deposited data

How the results depend on the processing

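The number of clock probe sets above background on all arrays depended on the limit. It was 5 with the 75th percentile (Per1, Per3 and Clock joined), 1 with the 95th (Csnk1e fell to 2 arrays) and 1 with plain _at sets only. It lay between 2 and 3 when 1 pool was left out. The number with a range over 1 log2 unit was 2 with a floor of 32 and 1 among sets above background on all arrays, and lay between 1 and 3 with a pool left out, where 2 arrays narrow a range by construction. The median SD of 0.49 was 0.25 with a floor of 32 and lay between 0.24 and 0.57 with a pool left out. Median rescaling and quantile normalization kept all 3 within 1.5 times their value. The Csnk1e range was 3.14-fold after median rescaling and 2.86-fold after quantile normalization. The 24 clock list genes above background became 33 and 17 with the 75th and 95th percentile, 21 with plain sets and 18 with averaged sets. They lay between 24 and 26 with a pool left out. Those lost with the 95th percentile were Csnk1e, Cry2, Nr1d1, Rora, Aanat, Drd4 and Egr1. Of 162 recomputed values of single probe sets, 16 moved by at least 1 SD of that probe set, 7 of them other than by a left-out pool. Leaving out 1 of 3 pools cannot move a mean that far, nor an SD unless it falls to nothing. The 16 of 162 is thus not a measure of stability. No paired analysis was possible because there was 1 group. Low signal limits what can be said of Per2, Clock and Dbp.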
